A study of Homo sapiens with 4 samples.

Results

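Cohesin, its regulators and CTCF were examined as a set of 10 genes in RNA-seq libraries of cells depleted of the DNA topoisomerase TOP2B. The genes were found by symbol in the deposited table, and all 10 matched one of its 60725 gene rows. They were CTCF, the ring subunits RAD21, SMC1A, SMC3, STAG1 and STAG2, and the regulators NIPBL, WAPL, PDS5A and PDS5B. The cells were hTERT-RPE1, a human line derived from retinal pigment epithelium and immortalized with telomerase, which carried the SunTag system in both groups. The control group (2 libraries) received 10 nM of Silencer Select Negative Control No. 2 siRNA, and the TOP2B knockdown group (2 libraries) received 10 nM of a Dharmacon siRNA pool. Both groups were transfected a second time after 48 h and collected 72 h later, on day 5. A single line with one control siRNA and one siRNA pool was used, so an effect of TOP2B loss and an effect of either siRNA cannot be told apart.

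Cohesin is a ring-shaped ATPase complex that holds sister chromatids together after replication and extrudes DNA loops in interphase. NIPBL, with its partner MAU2, loads cohesin and drives extrusion, WAPL together with the PDS5 proteins opens the ring, and acetylation of SMC3 by ESCO1 and ESCO2 protects it from release. CTCF is a zinc finger protein that stops extruding cohesin at oriented binding sites and so sets loop anchors. TOP2B, which passes one DNA duplex through a break in another, is known to sit near CTCF and cohesin at such anchors.

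The libraries held between 20310259 and 23887013 counts, so that 1 CPM, a count scaled to the size of its library by TMM, stood for 20.19 to 23.98 reads. TOP2B was at 154.9 and 143.5 CPM in the control libraries and at 15.3 and 13.3 CPM in the knockdown libraries, which left 9.58% of the control mean (log2 fold change -3.38, SE 0.14, edgeR quasi-likelihood test, adjusted p = 5.1e-06). Of the epithelial and line markers, KRT8 was at 1102 and 1347 CPM in control and at 853.5 and 1074 CPM in knockdown, and KRT18 at 354.9 and 424.4 CPM in control and at 266.3 and 329.3 CPM in knockdown. Neither was called (log2 fold changes -0.35 and -0.39, edgeR adjusted p = 0.255 and 0.15), although both knockdown libraries were below both control libraries. VIM was at 937.6 to 1019 CPM, and its groups overlapped. MITF was at 38.2 to 44.8 CPM and OTX2 at 11.2 to 13.4 CPM. Neither was called (log2 fold changes 0.19 and 0.16, edgeR adjusted p = 0.341 and 0.54). For each, both knockdown libraries were above both control libraries. The markers of differentiated pigment epithelium were near the floor, with RPE65 and TYR at 0 counts in all 4 libraries. RLBP1 had 0 to 1 counts and BEST1 14 to 20. TYRP1 had 3 and 2 counts in control and 7 in each knockdown library. PMEL had 20 and 7 counts in control and 31 and 23 in knockdown. It was not called (log2 fold change 1.17, SE 0.46, edgeR adjusted p = 0.137). Markers of blood (PTPRC), endothelium (PECAM1) and neurons (RBFOX3) had at most 24 counts. PECAM1 had 24 and 21 counts in control and 11 and 5 in knockdown. It was not called (log2 fold change -1.305, SE 0.46, edgeR adjusted p = 0.102, and from 0.0489 to 0.106 over the other filters and scalings). RBFOX3 had 2 counts in each control library and 0 in each knockdown library. After a filter that asked for 10 counts or more in 2 libraries or more, 15356 genes were tested, of which 10.8% were called at an adjusted p below 0.05 by edgeR in either direction, 6.66% as higher and 4.18% as lower in the knockdown. DESeq2 called 11.8% of the 13275 genes to which it gave an adjusted p. The median log2 fold change of all genes tested was -0.0029, with an interquartile range of 0.48.

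All 10 genes passed the filter on low counts, with between 1032 and 5442 counts per library. None was called by edgeR with condition as the only term or by DESeq2, beside 10.8% (edgeR) and 11.8% (DESeq2) of all genes with an adjusted p. The fold change was above 0 for 9 of the 10, and the median of the 10 was 0.31 on the log2 scale. At an unadjusted p below 0.05, 5 of the 10 were higher in the knockdown (RAD21, SMC3, STAG1, STAG2 and PDS5A), beside 14.5% of all genes tested. Both knockdown libraries lay above both control libraries for 8 of the 10, beside 27.7% of all genes tested. RAD21, SMC1A, SMC3, STAG1, STAG2 and PDS5A had fold changes between 0.31 and 0.38, whereas NIPBL, WAPL and PDS5B lay between -0.03 and 0.12 and CTCF at 0.21.

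**Figure D1:**
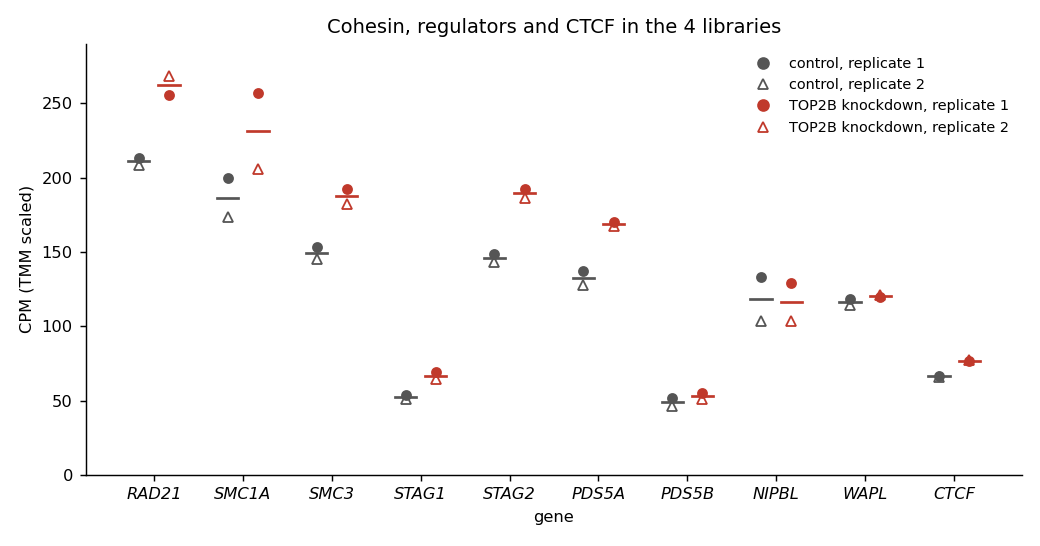
Level of each of the 10 genes in CPM (vertical axis, linear, from 0) in the 2 control and 2 TOP2B knockdown libraries. Circles are replicate 1, open triangles replicate 2 and bars the mean of 2. Both knockdown points lie above both control points for all genes except PDS5B and NIPBL, and replicate 1 lies above replicate 2 in both groups for 7 of the 10, by the widest margins for SMC1A and NIPBL.

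Among the ring subunits, RAD21, the kleisin that closes the ring and the target of separase, was at 213.4 and 208.4 CPM in the control libraries and at 255.8 and 268.6 CPM in the knockdown libraries. The groups did not overlap, and the mean was 24.3% above that of the control. The log2 fold change was 0.31 (SE 0.13, 95% interval 0.03 to 0.60), with an unadjusted p of 0.032 and an adjusted p of 0.144 by edgeR. SMC1A, one of the ATPase arms of the ring, was at 199.5 and 173.4 CPM in control and at 256.8 and 206.0 CPM in knockdown. Its spread was the widest of the ring subunits, since replicate 1 exceeded replicate 2 by 0.20 in control and by 0.32 in knockdown on the log2 scale, and the lower knockdown library was close to the higher control library. SMC1A thus had a log2 fold change of 0.31 (SE 0.15, 95% interval -0.02 to 0.64, edgeR adjusted p = 0.221). SMC3, the other ATPase arm and the subunit that ESCO1 and ESCO2 acetylate, was at 153.4 and 145.2 CPM in control and at 192.2 and 182.6 CPM in knockdown. All 4 pairings of a knockdown with a control library gave a higher value in the knockdown, by 0.25 to 0.41 on the log2 scale. The fit gave SMC3 a log2 fold change of 0.33 (SE 0.12, 95% interval 0.06 to 0.60, edgeR adjusted p = 0.12).

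STAG1 and STAG2 are alternative HEAT-repeat subunits that occupy the same place on RAD21. STAG1 was at 53.5 and 51.3 CPM in control and at 68.9 and 64.6 CPM in knockdown, and STAG2 was at 148.6 and 143.0 CPM in control and at 192.7 and 186.2 CPM in knockdown. For both, the gap between the groups exceeded the distance between replicates. The log2 fold change was 0.35 for STAG1 (SE 0.12, edgeR adjusted p = 0.0867) and 0.38 for STAG2 (SE 0.12, edgeR adjusted p = 0.0765), the smallest adjusted p of the 10 genes. The share of STAG1 in the sum of both, from CPM per kb of annotated exon, was 42.3% and 42.2% in the control libraries and 42.2% and 41.4% in the knockdown libraries. The shares differed by -0.48 percentage points (exact two-sided permutation test, p = 0.333, the smallest that 2 against 2 libraries allow). The share itself rests on the exon length used and was 26.8% in control with the canonical transcripts, while the difference was then -0.38 points.

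Promoter sequences are given for STAG1 and SMC3, which had like fold changes, and for NIPBL, which had none above its replicate error. Whether a word in them bears on the fold change was not tested. They are the 250 bases before the annotated start, on the strand of the gene, 5′ to 3′, from RefSeq on GRCh38.p14, at chr3:136752379-136752628 (minus strand) for STAG1, chr10:110567445-110567694 (plus strand) for SMC3 and chr5:36876519-36876768 (plus strand) for NIPBL. Capitals mark matches on either strand to an E2F word (TTTGGCGC, TTTCCCGC, TTTGGCGG or TTTCGCGC), to the NF-Y word CCAAT or to the ETS word CCGGAAGT.
STAG1: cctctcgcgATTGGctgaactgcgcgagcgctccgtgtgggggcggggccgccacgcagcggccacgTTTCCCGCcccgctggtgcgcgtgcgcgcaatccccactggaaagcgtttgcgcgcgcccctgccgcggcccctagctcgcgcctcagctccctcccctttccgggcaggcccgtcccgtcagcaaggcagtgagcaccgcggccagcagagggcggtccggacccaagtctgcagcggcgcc
SMC3: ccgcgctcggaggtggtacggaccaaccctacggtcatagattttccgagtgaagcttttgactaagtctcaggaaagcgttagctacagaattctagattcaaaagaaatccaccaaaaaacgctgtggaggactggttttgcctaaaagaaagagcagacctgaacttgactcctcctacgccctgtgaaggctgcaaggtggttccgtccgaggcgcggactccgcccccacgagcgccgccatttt
NIPBL: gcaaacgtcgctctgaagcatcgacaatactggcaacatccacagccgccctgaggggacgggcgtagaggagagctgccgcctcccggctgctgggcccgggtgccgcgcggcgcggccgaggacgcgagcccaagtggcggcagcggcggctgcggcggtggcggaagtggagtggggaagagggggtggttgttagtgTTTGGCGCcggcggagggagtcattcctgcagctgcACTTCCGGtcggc
The STAG1 promoter held an E2F word from base -183 and a CCAAT word on the other strand from base -241, counted back from the start. That of NIPBL held an E2F word from base -49 and an ETS word from base -13, and that of SMC3 held none of the words, the CREB word TGACGTCA included. RefSeq entries of 300 bases, 50 of them after the start, were found for 9 of the 10 genes, RAD21 being the exception. Of these 9, 4 held an E2F word in at least 1 entry (STAG1, STAG2, SMC1A and NIPBL) and 5 held CCAAT (STAG1, STAG2, PDS5A, PDS5B and WAPL). By entry, 4 of the 12 entries of these genes held an E2F word and 6 held CCAAT. Among 35116 entries of all genes, 3.35% held an E2F word and 34.61% held CCAAT. STAG2 had 3 entries and SMC1A 2, which gives these genes more sequence in which a word can occur. The 12 entries held 16 to 46 CpG each, against a median of 14 over all entries.

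A 6-base word in 3′ UTRs, GCAACC, was tied to higher values in the knockdown in an earlier look at these libraries, and its presence was therefore recorded. It occurred in the 3′ UTR of 1 of the 10 genes, SMC1A, and in 23.4% of the 12515 tested genes with a 3′ UTR. SMC1A, whose 3′ UTR of 5954 bases is the longest of the set, held 2 copies, shown with 12 bases on each side and the word in capitals, at chrX:53377084-53377113 and chrX:53375013-53375042 on the minus strand of GRCh38.
SMC1A, first copy: tggcatcacaggGCAACCgttgtcaaggct
SMC1A, second copy: tctggttcaaggGCAACCaatctctaggct
SMC1A had a log2 fold change of 0.31, and the members without a copy ranged from -0.03 (NIPBL) to 0.38 (STAG2). All tested genes with the word had a median of 0.058, beside -0.0029 for all genes tested, those without an annotated 3′ UTR included. The word was picked from these same libraries, so these medians cannot serve as a test of it. Whether the word bears on these values was not tested.

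Of the regulators that bind the assembled ring, PDS5A was at 137.4 and 128.0 CPM in control and at 169.9 and 167.5 CPM in knockdown. The groups were apart, and the mean was 27.1% above that of the control. The log2 fold change was 0.35 (SE 0.12, 95% interval 0.08 to 0.61, unadjusted p = 0.0167, edgeR adjusted p = 0.0991). PDS5B, its paralogue, was at 51.9 and 46.0 CPM in control and at 55.2 and 51.2 CPM in knockdown, where the lower knockdown library fell below the higher control library. For PDS5B the log2 fold change was 0.12 (SE 0.12, 95% interval -0.15 to 0.39, edgeR adjusted p = 0.587). The share of PDS5A in the sum of both, per kb of exon, was 74.1% and 75.0% in control and 76.9% and 78.0% in knockdown. The shares did not overlap and differed by 2.85 percentage points, with an exact two-sided permutation p of 0.333, again the smallest possible. Without any one library the difference lay between 2.32 and 3.38 points.

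NIPBL, the loader, was at 133.3 and 103.6 CPM in control and at 129.2 and 103.6 CPM in knockdown. Replicate 1 was higher than replicate 2 by 0.36 in control and 0.32 in knockdown on the log2 scale, so the replicates of one group lay further apart than the groups. The log2 fold change was -0.03 (SE 0.16, 95% interval -0.38 to 0.33, edgeR adjusted p = 0.942), and it became 0.17 without control replicate 1 and 0.11 without knockdown replicate 2. The upper end of this interval lies at the fold change of SMC3. WAPL, the release factor, was at 118.2 and 114.0 CPM in control and at 119.8 and 120.8 CPM in knockdown. The knockdown libraries were above the control libraries by a small margin, with a log2 fold change of 0.05 (SE 0.12, 95% interval -0.21 to 0.31, edgeR adjusted p = 0.826). The log2 ratio of NIPBL to WAPL per kb of exon was -0.62 and -0.94 in control and -0.69 and -1.02 in knockdown. The groups overlapped and differed by -0.074 (exact two-sided permutation test, p = 0.667), and the sign of this difference changed when control replicate 1 or knockdown replicate 2 was left out.

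CTCF was at 66.3 and 66.1 CPM in control and at 76.3 and 77.3 CPM in knockdown. The replicates lay closer to each other than for any other of the 10 genes in control, and the groups were apart. The mean was 16.0% above that of the control, with a log2 fold change of 0.21 (SE 0.11, 95% interval -0.04 to 0.47, unadjusted p = 0.0874, edgeR adjusted p = 0.265). The test draws on a spread shared over all genes, which for CTCF was wider than the distance between its own replicates. Its germline paralogue CTCFL, also called BORIS, had 0 counts in all 4 libraries, which allows up to 3 counts in each.

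**Figure D2:**
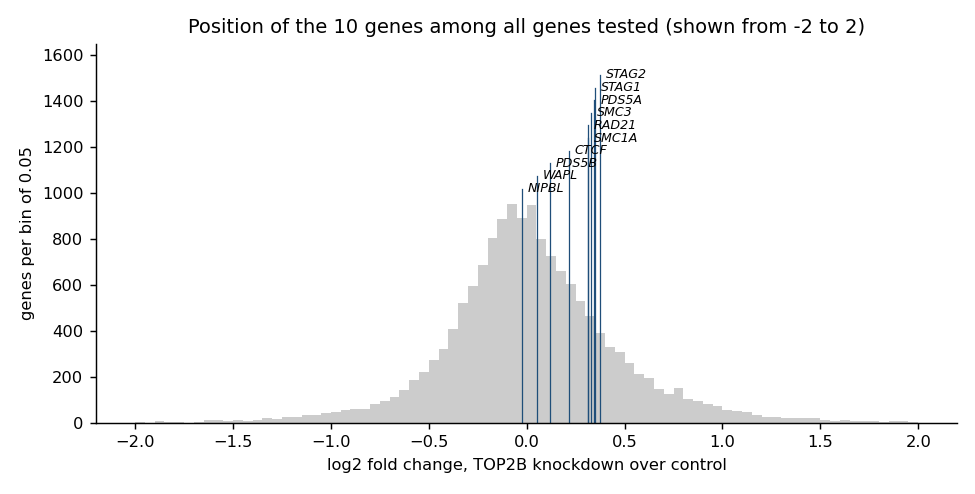
Number of genes (vertical axis, bins of 0.05) by log2 fold change of TOP2B knockdown over control (horizontal axis, from -2 to 2) for the genes tested. Lines mark the 10 genes, of which RAD21, SMC1A, SMC3, STAG1, STAG2 and PDS5A stand between 0.31 and 0.38 on the right shoulder, at percentiles 78.8 to 82.6 of all genes tested.

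Levels can be set beside each other between genes only per length. With the canonical transcript as length, RAD21 was the highest of the 10 in control, at 57.6 ± 1.0 CPM per kb (SD, n = 2), followed by SMC3 (27.0 ± 1.1) and STAG2 (23.6 ± 0.6). SMC1A, PDS5A and WAPL came next, at mean levels of 19.2, 18.6 and 18.4 CPM per kb, and their control libraries overlapped. CTCF stood at 17.4, NIPBL at 11.4, STAG1 at 8.64 and PDS5B at 6.55 CPM per kb. In the knockdown CTCF (20.1 CPM per kb) stood above WAPL (19.1), the one change of place among the 10, and the libraries of NIPBL (12.4 and 9.94) and STAG1 (11.4 and 10.7) overlapped. With all annotated exon bases as length, SMC1A came first at 17.2, WAPL followed at 16.1 and RAD21 was at 14.7 CPM per kb, so the order of the upper genes depended on the length. PDS5B was the lowest with either length.

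By GENCODE v44 on GRCh38, SMC1A (chromosome X, 53374149 to 53422728), STAG2 (chromosome X, 123960212 to 124422664), SMC3 (chromosome 10, 110567684 to 110606048) and WAPL (chromosome 10, 86435256 to 86521792) lie in pairs on one chromosome each. STAG1 is on chromosome 3 (136336236 to 136752403), PDS5A on chromosome 4 (39822863 to 39977956), NIPBL on chromosome 5 (36876769 to 37066413), RAD21 on chromosome 8 (116845934 to 116874776), PDS5B on chromosome 13 (32586452 to 32778019) and CTCF on chromosome 16 (67562467 to 67639177). Of the 10 genes, 5 span more than 100 kb, namely STAG2, STAG1, PDS5B, NIPBL and PDS5A, and their fold changes covered the whole range of the set, from -0.03 to 0.38. The 2799 tested genes of that length had a median log2 fold change of -0.02. Exon bases shared with another gene made up 21.2% of those of STAG1 (1661 bases with its neighbour PCCB), 13.1% for CTCF, 5.89% for RAD21 and at most 1.68% for the other members of the set. PCCB, which lies on the other strand from STAG1, was at 37.2 and 40.7 CPM in control and at 31.7 and 39.9 CPM in knockdown, and its groups overlapped. UTP23, on the other strand from RAD21 with 576 shared exon bases, was at 14.6 and 18.3 CPM in control and at 16.7 and 17.0 CPM in knockdown. The lncRNA ENSG00000237718, which shares 1326 exon bases with CTCF, had 4 to 8 counts, and STAG2-AS1 (1 to 4 counts) and TENM1 (0 counts) overlap exons of STAG2. Among transcripts that start near a start of the 10 genes on the other strand, WAPL-DT had 43 to 71 counts per library, and RAD21-AS1, RIBC1 beside SMC1A, STAG1-DT and CTCF-DT had no more than 14. NIPBL-DT and MIR3610, a microRNA gene within RAD21, were not analysed here. Whether the counting used strand is not given in the sources used here. Reads from the processed copies SMC3P1 (2 to 3 counts) and RAD21P1 (0 to 2 counts) were few.

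The other genes of the cohesin cycle included called genes in both directions. Of 21 listed, 20 were tested, 6 rose and 1 fell, beside 6.66% and 4.18% of all genes tested, and the median was 0.29 beside -0.0029. The factors that establish cohesion at the replication fork held most of the rises, with 4 of 7 called and a median of 0.59. CHTF18, a subunit of the alternative clamp loader, went from 54.2 and 49.7 CPM to 93.1 and 81.0 CPM (log2 fold change 0.74, SE 0.13, edgeR adjusted p = 0.00609). WDHD1, a fork scaffold that links helicase and polymerase, went from 38.4 and 35.7 CPM to 61.2 and 58.9 CPM, a log2 fold change of 0.70. TIMELESS, of the fork protection complex, had a log2 fold change of 0.59 (SE 0.12, edgeR adjusted p = 0.0138), a call lost without control replicate 2 (adjusted p = 0.11). The helicase DDX11 was called at 0.84, but its near copy DDX12P moved with it (228 and 158 counts in control, 371 and 253 in knockdown), so its value is uncertain. CHTF8, another subunit of the clamp loader, was at 83.0 and 99.0 CPM in control and at 89.2 and 103.6 CPM in knockdown, and 84.6% of its exon bases are shared with other genes.

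Of the acetyltransferases, ESCO2, which acts in S phase, rose from 20.4 and 20.2 CPM to 35.6 and 35.1 CPM (log2 fold change 0.80, SE 0.12, edgeR adjusted p = 0.00383). ESCO1, which acts through interphase, was at 19.2 and 17.9 CPM in control and at 17.9 and 17.0 CPM in knockdown, with a log2 fold change of -0.09 and an edgeR adjusted p of 0.734. Whether ESCO1 and ESCO2 differ was not tested. HDAC8, which removes the acetyl group from SMC3, had a log2 fold change of -0.10 (edgeR adjusted p = 0.726). Of the 6 factors of mitotic cohesion, both knockdown libraries lay above both control libraries for 5, beside 27.7% of all genes tested. Only 1 of the 6 was called, as higher, beside 6.66% of all genes tested. This was ESPL1, the separase that cuts RAD21, at 0.51 (SE 0.14, edgeR adjusted p = 0.049). The call of ESPL1 did not hold with a filter at a mean of 100 counts (edgeR adjusted p = 0.0657), with library size alone (0.0546), with DESeq2 scaling inside the edgeR fit (0.0513), without control replicate 2 (0.304) or without knockdown replicate 1 (0.248). CDCA5, or sororin, which counters WAPL, was at 94.0 and 120.4 CPM in control and at 118.1 and 126.5 CPM in knockdown, and the groups overlapped. PTTG1, or securin, the inhibitor of separase, had a log2 fold change of 0.26 (edgeR adjusted p = 0.224), and SGO2, a shugoshin that guards centromeric cohesin, one of 0.28 (edgeR adjusted p = 0.248). Of the meiotic subunits, SMC1B had 0 to 2 counts, and RAD21L1, REC8 and STAG3 were not called.

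**Figure D3:**
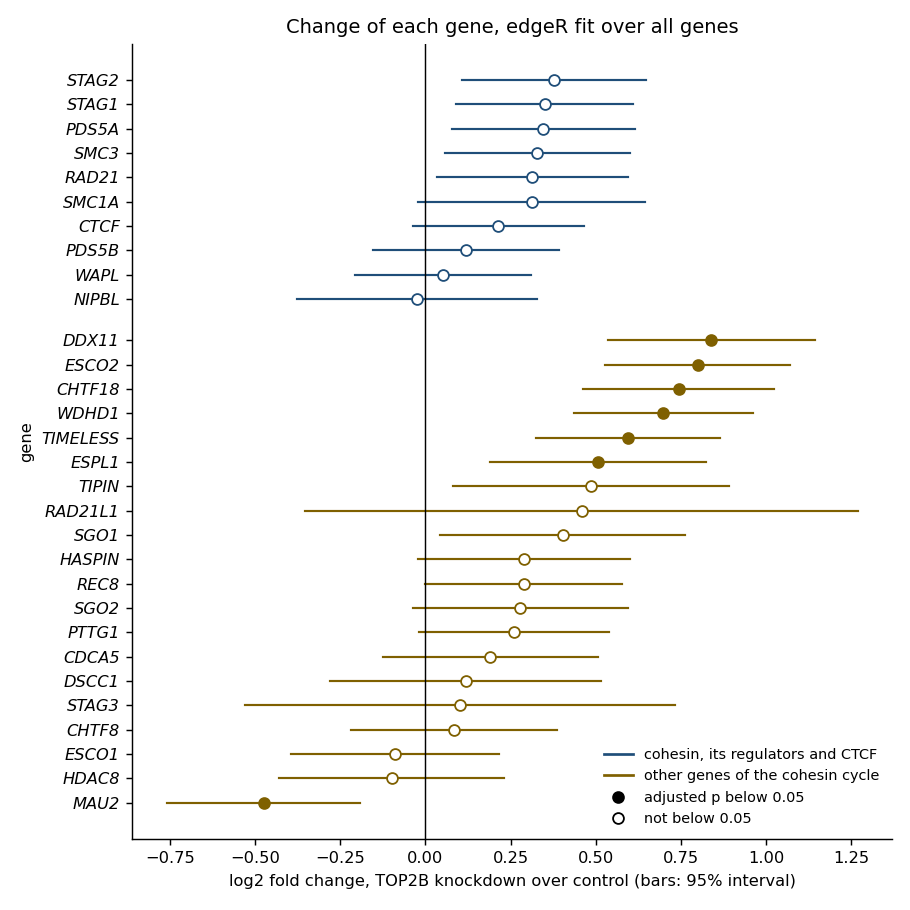
Log2 fold change of TOP2B knockdown over control (horizontal axis) with its 95% interval, from the edgeR fit over all genes, for the 10 genes (upper block) and the 20 tested genes of the cohesin cycle (lower block). Filled points were called at an adjusted p below 0.05. None of the upper block is filled, and in the lower block 6 genes from ESPL1 to DDX11 are filled on the right and MAU2 on the left.

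MAU2, the partner with which NIPBL loads cohesin, was the called gene of the list that fell. It was at 81.3 and 71.8 CPM in control and at 58.6 and 51.5 CPM in knockdown, a mean lower by 28.1%. Both knockdown libraries were below both control libraries. The log2 fold change was -0.48 (SE 0.13, 95% interval -0.76 to -0.19, edgeR adjusted p = 0.0413). The call did not hold with the filter at a mean of 100 counts (adjusted p = 0.054) or without control replicate 1, knockdown replicate 1 or knockdown replicate 2, where the adjusted p reached 0.215. The ratio of MAU2 to NIPBL, per kb of exon, was 0.69 and 0.79 in control and 0.52 and 0.57 in knockdown. This comparison was chosen after the values were seen, and its exact two-sided permutation p of 0.333 was the smallest possible.

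The loader and release factors were also set against SMC3 within each library, again after the values were seen. The exact two-sided permutation p was 0.333 for each of the 3 ratios, again the smallest possible. The CPM ratio of NIPBL to SMC3 was 0.87 and 0.71 in control and 0.67 and 0.57 in knockdown. That of WAPL to SMC3 was 0.77 and 0.79 in control and 0.62 and 0.66 in knockdown, and that of MAU2 to SMC3 was 0.53 and 0.49 in control and 0.30 and 0.28 in knockdown. The knockdown libraries were below the control libraries for each of the 3 ratios, whose common denominator, SMC3, had a mean 25.5% above that of the control.

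**Figure D4:**
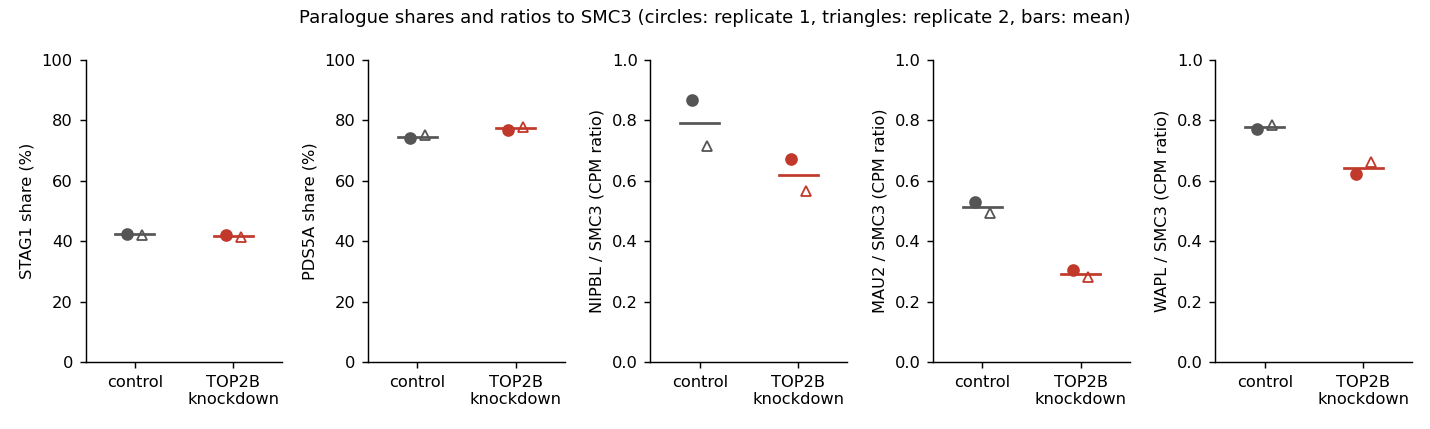
Share of STAG1 and of PDS5A among their paralogue pairs (percent of CPM per kb of exon, axes from 0 to 100) and CPM ratios of NIPBL, MAU2 and WAPL to SMC3 (axes from 0 to 1), by library. Circles are replicate 1, open triangles replicate 2 and bars the mean. The groups are close for STAG1, differ by 2.85 points for PDS5A, and are apart for the 3 ratios, most for MAU2.

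Markers of proliferating cells were read beside the cohesin genes. Of 10 such genes, chosen with earlier results of these data known, 5 rose (PCNA, MCM2, RRM2, TYMS and CDK1), beside 6.66% of all genes tested. The median of the 10 was 0.46. For all 10 both knockdown libraries lay above both control libraries, beside 27.7% of all genes tested. PCNA, the sliding clamp of replication, went from 166.8 and 176.6 CPM to 262.0 and 288.2 CPM. The calls of CDK1 (edgeR adjusted p = 0.0497) and RRM2 (0.0295) were lost in each of the 4 fits without 1 library, that of CDK1 also with DESeq2 (adjusted p = 0.0659), with DESeq2 scaling inside edgeR and without the filter. Those of PCNA (adjusted p = 0.0641) and TYMS (0.0702) were lost without knockdown replicate 2, and that of MCM2 held in all these fits. TOP2A, BUB1 and AURKA, which serve mitosis, had log2 fold changes of 0.25, 0.12 and 0.04 and were not called. MKI67 had the replicate order of SMC1A and NIPBL, at 569.4 and 438.0 CPM in control and at 924.1 and 580.2 CPM in knockdown. In RNA from whole cultures, a different share of cells in a cycle phase and a different level per cell cannot be told apart. From PI staining, the paper reports unaltered cell cycle progression after TOP2B depletion. The part of the cell cycle in the values of the cohesin genes was not tested.

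The other complexes built on SMC proteins were read as a comparison. Of 8 condensin genes, which compact mitotic chromosomes, 2 rose, beside 6.66% of all genes tested, and the median was 0.33. An unadjusted edgeR p below 0.05 was found for 6 of the 8, all higher, beside 14.5% of all genes tested. Both knockdown libraries lay above both control libraries for all 8, beside 27.7% of all genes tested. NCAPD2, of condensin I, went from 288.3 and 271.5 CPM to 426.5 and 423.2 CPM (log2 fold change 0.60, edgeR adjusted p = 0.0193), a call lost in each of the 4 fits without 1 library (adjusted p = 0.0671 to 0.153). NCAPH2, of condensin II, had a log2 fold change of 0.63. The ATPase arms SMC2 and SMC4 were not called, at 0.20 and 0.31, nor were NCAPG2 and NCAPD3, at 0.27 and 0.32. Of 6 genes of the SMC5/6 complex, which acts in DNA repair, 0 were called by edgeR, 1 had an unadjusted p below 0.05 (SMC5, at 0.38), and the median was 0.09. Of 7 further factors tied to loop anchors or to the sites of CTCF, 6 were tested, 0 were called by edgeR and 0 had an unadjusted p below 0.05. Their median was -0.003, with LDB1 (150.2 and 139.1 CPM in control, 124.7 and 120.2 in knockdown) at -0.24 and YY1 at 0.19. Differences between these lists were not tested.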

How the data were processed

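RNA-seq was analysed in 2 control and 2 TOP2B knockdown libraries. According to the methods and the submitters' processing notes, the authors checked single-end 65-bp reads with FastQC 0.11.6, aligned them to GRCh38 with STAR 2.5.4a and counted them per Gencode v24 gene. The deposited values are raw counts, without normalization. The table holds 4 further columns, identical copies, which were not used, and its column names mention stranded paired-end reads.

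From the counts, edgeR 4.0.16 (glmQLFit and glmQLFTest, TMM, condition as the only term, Benjamini-Hochberg over the 15356 genes that reached 10 counts in 2 or more libraries) gave fold changes and p-values in R 4.3.3. The common dispersion was 0.0117. DESeq2 1.42.0 was an alternative, beside other scalings, filters, exon lengths (the canonical transcript was added after the data were seen), a replicate block and fits without 1 library. Intervals cover the error of these libraries only. The replicates, called independent by the methods, differed by more than sampling noise. Scripts were tested on simulated counts. Symbols, lengths and 3′ UTRs came from GENCODE v44, and 56558 of 60725 rows had a symbol. Shares and ratios were compared by exact permutation.

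The genes and lists were chosen with earlier results of these data known. Named were the 10 genes, TOP2B, the called genes of each list with up to 4 others of highest CPM, and neighbours within 1000 bases or with shared exons. ESCO1, HDAC8, the meiotic subunits, CTCFL, OTX2, RPE65 and TYR were named outside this rule, after their values were seen.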

Additional observations from a re-analysis of the deposited data

How the results depend on the processing

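Of 100 recomputed fold changes of the 10 genes, 91 kept their direction and their side of the threshold, 7 moved past it and 2 reversed. The 2 were NIPBL, at 0.111 without knockdown replicate 2 and 0.168 without control replicate 1, within a range of -0.195 to 0.168 over the fits without 1 library. With the replicate number as a block, 7 of the 10 genes were called as higher (RAD21, SMC1A, SMC3, STAG1, STAG2, PDS5A and CTCF, against 0 in every other fit with a test), as were 13 genes of the cohesin cycle. That block called 3440 genes as higher and 3346 as lower, 44.2% of all genes tested. The deviations of same-numbered samples from their group means correlated at 0.479 across genes, a hint of pairing from the data. No label says that a number marks a shared culture or day, and with 2 pairs the pairing was not settled, so the block is not the reported fit. It cannot change a difference of means in a share or ratio. With no filter beyond 1 count, 985 genes were lower. The fall of MAU2 left the called genes with a filter at a mean of 100 counts (0 of the cohesin cycle lower), and fits without 1 library called 0 to 1. The share of STAG1 in control was 42.3% by exon union, 29% by longest transcript, 26.8% by canonical transcript and 26.4% without length. That of PDS5A was 73.1% without length (74.6% with it), and the log2 ratio of NIPBL to WAPL was 0.0179 without length (-0.779 with it). With 2 libraries per group the precision is limited, and even for STAG2, which had the smallest adjusted p of the 10, the 95% interval ran from 0.11 to 0.65.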
